A study of Mus musculus with 12 samples.

Results

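The translation initiation and elongation factors of the olfactory bulb (OB) were followed at the mRNA level in Tg2576 and wild-type (WT) mice. Members were all probesets whose gene symbol starts with Eif or Eef and a digit. The eIF2 kinases (Eif2ak, 4 symbols) and probesets given more than 1 symbol were left out. This gave 57 genes of 19505 with a symbol, each with 1 probeset, among 22206 gene probesets in all. Of the 57, 12 encode subunits of eIF3 and 45 encode other factors or proteins that act on them. Tg2576 mice overexpress human amyloid precursor protein with the Swedish double mutation under the prion promoter, which drives the transgene beyond the OB. The 12 mice were female, of the C57BL/6/SJL background, and each gave whole OB total RNA to its own Affymetrix Mouse Clariom S array. There were 4 groups of 3, namely Tg2576 mice and WT littermates, each at 2 and at 6 months of age. The label says 2 months for the younger mice, while a table of the paper gives another age for them.

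Protein synthesis starts when a small ribosomal subunit carrying eIF3, eIF1, eIF1A and the initiator tRNA held by eIF2 is brought to the capped end of an mRNA by the eIF4 factors, and scans to a start codon. The large subunit then joins with the help of eIF5B, after eIF6 has left it. Elongation uses eEF1A to bring charged tRNAs, the eEF1B complex to recharge eEF1A with GTP, eEF2 to move the ribosome along and eIF5A to ease difficult steps. Neurons regulate these steps, including locally near synapses, through eIF2 phosphorylation, the 4E-binding proteins and eEF2 kinase.

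Values are log2 intensities, and a fold change is a difference of log2 group means. The median of an array was 8.24 to 8.27, and arrays correlated with each other at 0.978 to 0.995. The numbering of arrays follows the groups, and the 2 cannot be told apart. Hybridization controls, which are spiked in, read 12.4 and 11.9 in WT 6 months replicates 2 and 3, and 11.1 to 11.5 elsewhere. OB interneuron markers had array means of 11.7 to 11.9, and those of mitral and tufted cells of 9.91 to 10.3, above the background control median of 4.88 to 5.19. The mouse App probeset differed by 0.03 between genotypes at 2 months and by 0.08 at 6 months. It was not designed for the human transgene, so it checks no label. In bulk tissue, fewer cells of a type and less RNA per cell cannot be told apart. Calls needed 0.01 as the upper limit on limma's p before adjustment, called the p limit here, and a fold above 1.3 or below 0.7. On the log2 scale the lower of these limits lies farther from no change than the upper. The change of the genotype difference between ages had no fold limit. Adjusted p-values are over all probesets.

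Of the 57 members, 36 lay above the brightest of 23 background control probesets on every array. The other 21 did not, among them Eif3a and Eif3i on no array, Eif3b on 9 arrays and Eef1b2 on 11. Differences of these genes are read from dim spots. Eif2s3y, the Y-linked gene of an eIF2 subunit, read 4.60 to 5.08 in these female mice, at the level of the background controls. Eif3j2, Eif4a3l1 and Eef1a1 have near-identical copies elsewhere in the genome, so their probesets may read more than 1 gene. Eif2s3y also has a close copy, Eif2s3x, but that read 10.33 to 10.56 on the same arrays, far above the Eif2s3y probeset.

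The plainest change in the eIF3 complex was in 2 of its subunits. Eif3f and Eif3k were higher in Tg2576 than in WT mice at 2 months, by 0.47 log2 units each, which is 1.38-fold. Both encode subunits of the core that lies on the small ribosomal subunit, Eif3f as one of its MPN-domain subunits and Eif3k in a peripheral arm. At that age the other subunits differed by at most 0.16 log2 units, except Eif3i.

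Eif3f read 10.14, 10.46 and 10.61 in the WT mice of 2 months, and 10.82, 10.76 and 11.05 in the Tg2576 mice of that age. The groups did not overlap, and WT replicate 1 was the lowest of all 12 arrays. At 6 months it read 10.74, 10.77 and 10.80 in WT and 10.92, 10.88 and 10.95 in Tg2576 mice, so that both older groups sat near the younger Tg2576 mice. Group means were 10.41 ± 0.24 (SD, n = 3) and 10.88 ± 0.15 at 2 months, then 10.77 ± 0.03 and 10.92 ± 0.03 at 6 months. The difference at 2 months had an SE of 0.12 and passed the p limit, with an adjusted p = 0.762 in limma. At 6 months the groups again did not overlap, with a log2 fold change of 0.15 (SE 0.12) that missed the p limit.

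Eif3k read 9.35, 9.64 and 9.81 in WT and 10.05, 10.02 and 10.13 in Tg2576 mice at 2 months. As with Eif3f, WT replicate 1 was the lowest array and the groups did not overlap. At 6 months the values were 9.94, 10.23 and 10.10 in WT and 10.04, 10.10 and 10.01 in Tg2576 mice, which overlap. Means were 9.60 ± 0.23 (SD, n = 3), 10.07 ± 0.06, 10.09 ± 0.15 and 10.05 ± 0.05 for WT and Tg2576 mice at 2 months and WT and Tg2576 mice at 6 months. The difference at 2 months had an SE of 0.12 and passed the p limit (limma, adjusted p = 0.762). The 6-month difference was -0.04. The genotype difference itself was smaller at 6 than at 2 months by a log2 change of -0.51 (SE 0.17, limma, adjusted p = 0.842), past the p limit.

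These 2 genes were the only members called at 2 months, against 0.572% of all probesets (0.401% higher). No member was called lower. Over all probesets the lowest adjusted p at 2 months was 0.762, and 0 of 22206 passed 0.05 in limma, while 1403 (6.32%) had an unadjusted p under 0.05. Without WT 2 months replicate 1, Eif3f had a log2 fold change of 0.34 and missed the p limit, and Eif3k had 0.34 and missed the fold limit. Eif3f also missed the p limit when Tg2576 2 months replicate 3 was left out (0.38), and Eif3k did not.

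**Figure D1:**
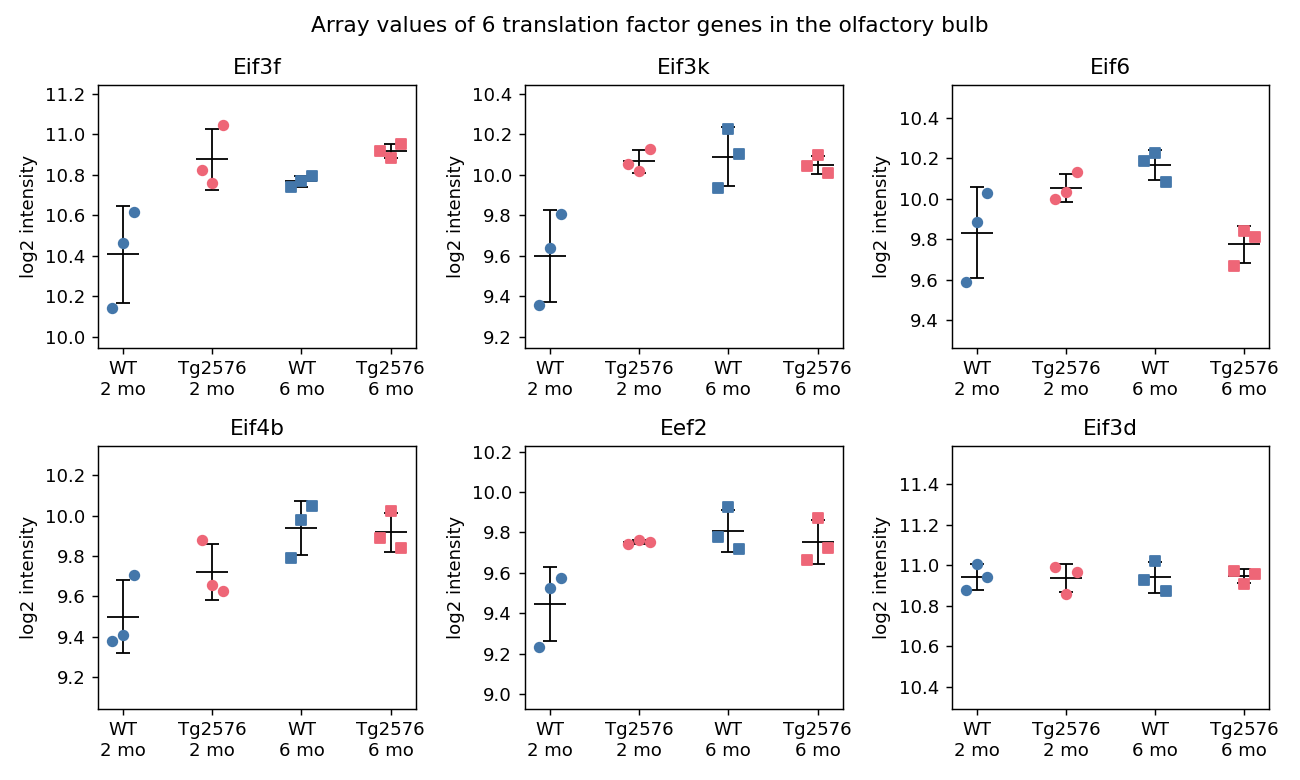
Array values (log2 intensity, vertical axis) of 6 members in the 4 groups (horizontal axis); each point is 1 mouse, and black bars are the group mean ± SD, with the same vertical span in every panel. For Eif3f, Eif3k and Eef2 the 3 WT mice of 2 months lie below all Tg2576 mice of that age, for Eif6 the 3 Tg2576 mice of 6 months lie below the WT mice, and Eif3d is level at 10.94 in every group.

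Markers of leptomeningeal fibroblasts, cells of the membrane around the bulb, differed between the same groups. Their mean value was 8.07 to 8.56 in WT and 8.68 to 9.28 in Tg2576 mice at 2 months, with no overlap. All 12 markers had a fold change above 0 (median 0.46), and Ogn, Omd and Igf2 were called. With this mean as a covariate, Eif3f had 0.21 (SE 0.13) and Eif3k 0.26 (SE 0.14), and neither passed the p limit. Since the covariate itself separated the genotypes at 2 months, and holds the 3 called markers, such a fit cannot tell it from genotype. No conclusion is drawn from the lost calls. WT replicate 1 and Tg2576 replicate 3 had the lowest and highest of these values. Without both, Eif3f had 0.25 and Eif3k 0.31, and neither was called, in a setting chosen after the data were seen. On the same arrays other markers moved too. Olfactory sensory neuron markers had 8 of 8 above 0 at 2 months (median 0.12, 0 called). Their mean deviations were -0.115, 0.161 and 0.047 in WT and -0.218, -0.059 and 0.850 in Tg2576 mice, which overlap. Mobp of oligodendrocytes (0.46) and Gjb6 of astrocytes (0.38) were called, with 7 of 9 and 4 of 7 markers above 0. Endothelial markers had 1 of 6 above 0. The part of any of these cells in the result was not tested further.

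Promoter sequences are shown here for the pair that was called together and for eIF3 subunits that were not, so that they can be compared. They are from RefSeq (GRCm38.p6), which held 42 of the 57 members in 300-base windows, 250 before and 50 after the annotated start. Printed are 120 bases before and 20 after the start, 5′ to 3′ on the gene's strand, with CACGTG, the E-box core, in capitals. Eif3f lies at chr7:108934295-108934434 on the plus strand, Eif3k at chr7:28981869-28982008 on the minus strand, Eif3l at chr15:79075103-79075242 on the plus strand and Eif3m at chr2:105017008-105017147 on the minus strand.
Eif3f: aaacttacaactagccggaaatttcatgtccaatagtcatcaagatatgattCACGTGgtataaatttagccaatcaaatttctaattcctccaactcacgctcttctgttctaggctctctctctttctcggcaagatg
Eif3k: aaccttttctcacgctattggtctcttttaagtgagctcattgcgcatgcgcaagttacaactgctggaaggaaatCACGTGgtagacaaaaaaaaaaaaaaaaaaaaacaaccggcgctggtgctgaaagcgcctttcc
Eif3l: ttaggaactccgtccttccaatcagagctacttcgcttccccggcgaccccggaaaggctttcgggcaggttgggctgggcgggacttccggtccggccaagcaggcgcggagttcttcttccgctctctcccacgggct
Eif3m: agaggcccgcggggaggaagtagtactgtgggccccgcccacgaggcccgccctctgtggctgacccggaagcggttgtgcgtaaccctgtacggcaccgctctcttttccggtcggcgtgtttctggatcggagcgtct
CACGTG begins 68 bases before the start of Eif3f and 44 before that of Eif3k. The windows of Eif3l and Eif3m do not hold it, though that of Eif3a, also not called and not printed, does. Eif4b, called for age in WT mice, has a window without it. CACGTG reads the same on both strands.

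Motifs were searched on both strands, each on its own, after the values had been seen. CACGTG was in the windows of 12 of 42 member genes (28.6%) and of 8.09% of all 27025 genes with a window. Among 8 eIF3 genes with a window, Eif3a, Eif3f and Eif3k held it. The ETS core CCGGAA was in 20 of 42 member genes (47.6%) against 16.7% of all genes. AAGATGG, a YY1 core, was in 8 (19.0%) against 7.28%, and TATAAA in 4 (9.52%) against 15.7%. A C followed by at least 4 pyrimidines within 5 bases of the annotated start, the letters of a TOP mRNA, was looked for on the gene's strand only and was in 10 (23.8%) against 18.6%. At 2 months the 12 genes with CACGTG had a median log2 fold change of 0.10, with 9 above 0, and the 30 without it of -0.01, with 13 above 0. At 6 months the medians were -0.00 and 0.03. The 12 include the called Eif3f and Eif3k, and also Eif5a (-0.21 at 2 months), and were split after their values were seen. Only this motif was split in this way, so the medians are no separate support for a role of it. These counts and medians describe letters in a window, not sites in use.

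The remaining eIF3 subunits were more level. Eif3i, a subunit of a peripheral module, read 7.53, 7.40 and 7.998 in WT and 8.27, 7.95 and 7.90 in Tg2576 mice at 2 months, with overlap, and was below the brightest background control throughout. Its log2 fold change was 0.39 (SE 0.16, limma, adjusted p = 0.764), outside the p limit. Eif3a, the largest scaffold subunit, had 0.16, with groups that did not overlap at 2 months. Eif3j2, a copy of the loosely bound subunit, had 0.12. Eif3b, Eif3c, Eif3d, Eif3e, Eif3h, Eif3l and Eif3m lay between -0.08 and 0.04. Eif3d, which itself can bind caps, read 10.86 to 11.02 over the 12 arrays, and its 4 group means were all 10.94. Eif3l, which sits beside Eif3k in the complex, read 10.33, 10.44 and 10.03 in WT and 10.16, 10.20 and 10.20 in Tg2576 mice at 2 months, with overlap.

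At 6 months none of the 12 subunits was called. Eif3m, a core subunit, read 11.63, 11.46 and 11.50 in WT and 11.67, 11.64 and 11.68 in Tg2576 mice, without overlap, and its log2 fold change was 0.13 (SE 0.10). Eif3i had 0.22, with 7.97, 8.02 and 7.76 in WT and 8.16, 8.33 and 7.92 in Tg2576 mice, which overlap. Eif3l (-0.13), Eif3j2 (-0.08) and Eif3k (-0.04) were the 3 below 0.

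**Figure D2:**
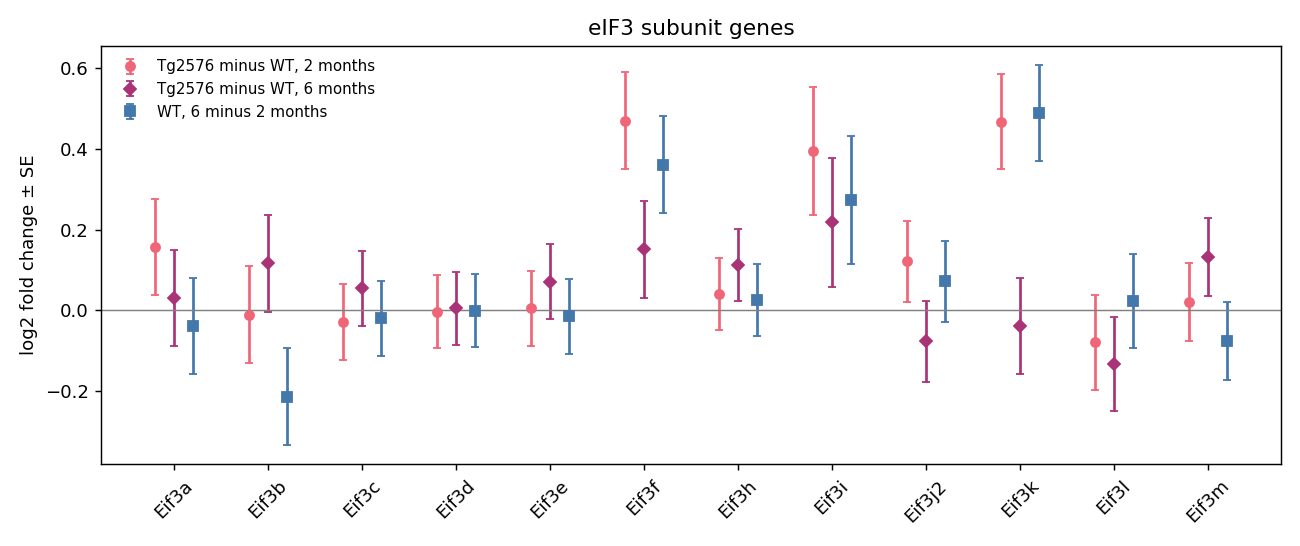
Log2 fold change ± SE (vertical axis) of the 12 eIF3 subunit genes (horizontal axis) for Tg2576 minus WT at 2 months (circles), Tg2576 minus WT at 6 months (diamonds) and 6 minus 2 months in WT (squares). Eif3f (0.47) and Eif3k (0.47) stand above the other subunits at 2 months and again in the WT age comparison, which shares the young WT arrays, whereas at 6 months all 12 lie between -0.13 and 0.22.

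Set against each other, the eIF3 subunits and the other members had medians of 0.03 and 0.02 at 2 months, with 8 of 12 and 24 of 45 above 0. At 6 months the medians were 0.06 and -0.02, with 9 of 12 and 22 of 45 above 0. All probesets had a median of 0.01 at both ages, with 51.8% above 0. Per array, the mean deviation of the 12 eIF3 genes from their 12-array mean was -0.155 to -0.035 in WT and 0.009 to 0.071 in Tg2576 mice at 2 months. At 6 months it was -0.021 to 0.010 in WT and 0.041 to 0.052 in Tg2576 mice, again without overlap. The median deviation of the eIF3 genes overlapped at 2 months, with -0.061, -0.005 and -0.035 in WT and 0.043, -0.014 and 0.059 in Tg2576 mice. At 6 months it was 0.011, -0.007 and -0.030 against 0.056, 0.039 and 0.040, without overlap. The mean of the other 45 members overlapped at both ages, with -0.069 to 0.007 and -0.041 to 0.041 at 2 months, and 0.008 to 0.042 and -0.003 to 0.040 at 6 months. The eIF3 median less that of the other members on the same array was -0.063, 0.025 and -0.027 in WT and -0.010, 0.018 and 0.047 in Tg2576 mice at 2 months, which overlap. At 6 months this value was -0.026, -0.020 and -0.045 in WT and 0.050, 0.023 and 0.014 in Tg2576 mice, without overlap. These shifts were under 0.16 log2 units. Genes of the same arrays are not independent, and no p is given for such means.

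Markers of some other cell types were also apart at 6 months. Olfactory sensory neuron markers had mean deviations of -0.368 to -0.147 in WT and -0.053 to 0.188 in Tg2576 mice, with 8 of 8 above 0 (median log2 fold change 0.37) and 0 called. Those of mitral and tufted cells had -0.232 to -0.031 and 0.061 to 0.115 (5 of 6 above 0, median 0.18), and those of oligodendrocytes -0.310 to -0.276 and -0.235 to 0.151 (9 of 9 above 0, median 0.29), with Mbp called higher (0.55). None of these overlapped between genotypes, whereas markers of leptomeningeal fibroblasts, astrocytes, microglia, endothelium, interneurons and choroid plexus did. The part of any of these cells in the eIF3 values was not tested.

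The 67 cytosolic ribosomal proteins, which are made from mRNAs controlled along with many of these factors, had deviations of -0.269 to 0.016 in WT and -0.016 to 0.195 in Tg2576 mice at 2 months. WT replicate 1 and Tg2576 replicate 3 were again the ends of that range. Their median log2 fold change was 0.19, with 59 of 67 above 0, and Rpl6, Rpl9, Rpl23 and Rps29 were called. At 6 months the median was 0.07 with 0 called. The deviations of the genotypes overlapped at 2 months. They did not at 6 months, with -0.031 to 0.026 in WT and 0.036 to 0.109 in Tg2576 mice.

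**Figure D3:**
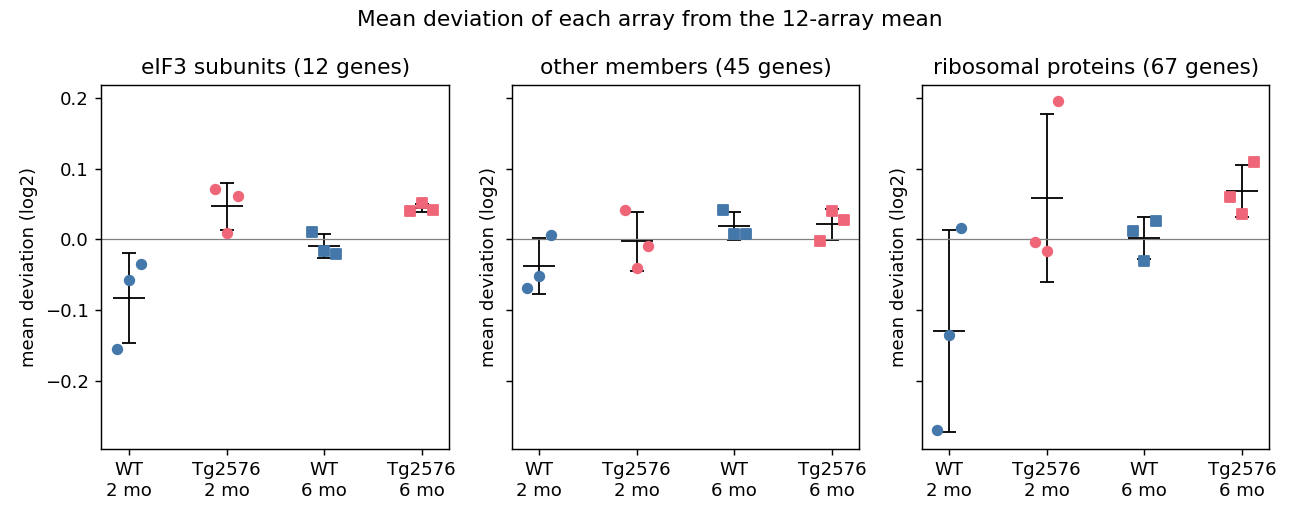
Mean deviation of each array from the mean over 12 arrays (log2, vertical axis) for 12 eIF3 genes, 45 other members and 67 ribosomal proteins (panels), by group (horizontal axis); each point is 1 mouse and bars are the mean ± SD. The WT mice of 2 months have the lowest mean in all 3 panels. The genotypes do not overlap at 6 months for the eIF3 genes and the ribosomal proteins.

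Among the elongation factors, none of 9 was called at 2 months. Eef2, which translocates the ribosome, read 9.23, 9.53 and 9.57 in WT and 9.74, 9.76 and 9.75 in Tg2576 mice. These groups did not overlap, with a log2 fold change of 0.31 (SE 0.11, limma, adjusted p = 0.762). Eef1g read 10.31, 10.42 and 10.67 in WT and 10.79, 10.66 and 10.90 in Tg2576 mice, and Eef1b2, the exchange subunit of the same eEF1B complex, 9.17, 9.39 and 9.51 against 9.67, 9.54 and 9.85. Their log2 fold changes were 0.32 (SE 0.12) and 0.33 (SE 0.15). The third subunit, Eef1d, went the other way at -0.22, with 10.05, 10.23 and 9.57 in WT and 9.62, 9.66 and 9.92 in Tg2576 mice. The 3 subunits thus lay on both sides of 0, and none was called. Eif5a, which carries the hypusine residue, had -0.21, with 12.26, 12.06 and 11.99 in WT mice all above 11.97, 11.91 and 11.81 in Tg2576 mice.

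Eef2 is also shown at its promoter, since it was the elongation factor with the lowest p at 2 months. The stretch is chr10:81176511-81176650 on the plus strand (GRCm38.p6, RefSeq), 120 bases before and 20 after the start, and its CACGTG (capitals) begins 43 bases before the start.
Eef2: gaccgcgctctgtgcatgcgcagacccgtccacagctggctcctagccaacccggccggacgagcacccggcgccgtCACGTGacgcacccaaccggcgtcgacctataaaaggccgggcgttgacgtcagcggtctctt

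Elongation factors with paralogs were set side by side. Eef1a1 and Eef1a2, the general eEF1A and the form of neurons and muscle, both had -0.04 at 2 months, and 0.19 and -0.05 at 6 months. Eif5a and Eif5a2 had -0.21 and 0.07 at 2 months, then 0.08 and 0.33. Eif5a2 was dim, at 7.42, 7.08 and 7.23 in WT and 7.42, 7.63 and 7.66 in Tg2576 mice of 6 months, had the largest rise of the members at that age, and was not called. Of 6 enzymes that act on elongation factors, 0 were called in any comparison, against 0.527% to 1.74% of all probesets. Eef2k, the kinase that silences eEF2, had -0.04 at 2 months and -0.12 at 6 months, and the methyltransferase Eef2kmt had 0.16 and 0.06.

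In all, 7 members had an unadjusted p under 0.05 with a higher level at 2 months and 0 with a lower one, against 3.31% and 3.01% of all probesets. The one not yet given is Eif2b1, the alpha subunit of the eIF2B exchange factor, at 9.004, 8.93 and 9.45 in WT and 9.42, 9.35 and 9.68 in Tg2576 mice (0.35, SE 0.13). The other eIF2B subunits lay between -0.08 and 0.05. Groups did not overlap for 7 members on the higher side and 1 on the lower, 8 of 57, against 9.96% of all probesets. Of the 57, 32 were above 0 at 2 months and 31 at 6 months. The largest log2 falls at 2 months were those of Eef1d, Eif5a and Eif4enif1 (-0.18), a protein that carries the cap-binding eIF4E into the nucleus, and none was called.

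At 6 months, 0 members were called, against 1.04% of all probesets, of which 0 passed an adjusted p of 0.05 in limma and 1911 an unadjusted 0.05. Eif6, the factor that keeps free large subunits from joining too early, had the largest difference. It read 10.19, 10.22 and 10.08 in WT and 9.67, 9.84 and 9.81 in Tg2576 mice, which did not overlap. Its log2 fold change was -0.39 (SE 0.12, 0.763-fold, limma, adjusted p = 0.429), which passed the p limit and missed the fold limit. With the lower fold limit set to the inverse of the upper, a setting chosen after seeing the data, it would be the 1 member called, lower in Tg2576 mice, against 1.52% of all probesets.

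At 2 months Eif6 ran the other way, with 9.59, 9.88 and 10.03 in WT and 9.997, 10.04 and 10.13 in Tg2576 mice, which overlapped, and a log2 fold change of 0.22 (SE 0.12). Group means were 9.83 ± 0.23 (SD, n = 3) and 10.05 ± 0.07 at 2 months, and 10.16 ± 0.07 and 9.77 ± 0.09 at 6 months. The change in the genotype difference was -0.61 (SE 0.16, limma, adjusted p = 0.842), and it passed the p limit in all 12 fits without 1 array. With the leptomeningeal mean as a covariate it was -0.51 and with the hybridization controls -0.56, and both missed the p limit. It was -0.45 and missed the limit without the pair of young arrays left out above. Eif6 and Eif3k were the 2 members called for this difference, both lower at 6 months, against 0.779% of all probesets (0.518% lower). Eif3k passed in 2 of those 12 fits, those that left out WT 2 months replicate 3 or WT 6 months replicate 1. In each of the other 10 its p missed the limit, with changes of -0.61 to -0.38 over the 12. With p under 0.05 there were 4 members, against 5.71% of all probesets, the others being Eef1g (-0.39) and Eef2 (-0.36). None of the 4 was on the higher side, where Eef1d (0.32), Eif5a (0.28) and Eif2s3y (0.26, at background) had the largest values.

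The repressor Eif4ebp2, the main 4E-binding protein of the brain, was the other member past the p limit at 6 months, although Eif5a2 (0.33), Eif4g2 (-0.30) and Eif2b4 (0.29) differed by more. It read 8.72, 8.67 and 8.74 in WT and 8.95, 9.03 and 8.95 in Tg2576 mice of 6 months, without overlap, and was above the brightest background control on 4 of 12 arrays. Its log2 fold change was 0.26 (SE 0.09, limma, adjusted p = 0.482), 1.20-fold, past the p limit and short of the fold limit. At 2 months its values were 8.75, 8.91 and 8.83 in WT and 9.03, 9.01 and 8.99 in Tg2576 mice, also without overlap (0.18). Eif4e3, a cap-binding relative of eIF4E, read 10.33, 10.28 and 10.38 in WT and 10.07, 10.14 and 10.11 in Tg2576 mice at 6 months, without overlap (-0.22, SE 0.10), and was not called. Eif4e and Eif4e2 had -0.07 and -0.10 there, and 0.00 and 0.03 at 2 months. Eif4g2, a scaffold that lacks the eIF4E site, had a mean of 10.03 ± 0.05 (SD, n = 3) in WT and 9.73 ± 0.21 in Tg2576 mice, without overlap (-0.30), and Eif4g3 had -0.14 with values from 8.84 to 9.45. Eif4enif1 had -0.23.

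Of the 14 genes grouped under cap binding and unwinding, 10 were above 0 at 2 months (median 0.03) and 5 at 6 months (median -0.03). At either age 0 were called. The 14 include the repressors Eif4ebp1 and Eif4ebp2, so these counts mix opposed functions. The helicases Eif4a1 and Eif4a3, the latter of the exon junction complex, had 0.03 and 0.04 at 2 months, and -0.03 and 0.14 at 6 months. Scanning factors lay between -0.13 and 0.16 at 2 months, with Eif1a at 0.03, its X-linked relative Eif1ax at -0.13 and Eif1b at 0.16. At 6 months these were -0.06, -0.23 and 0.24. For delivery of the initiator tRNA, Eif2s3x had -0.07 and -0.03 and Eif2s3y, at background, -0.16 and 0.10. Eif2b4, an eIF2B subunit, read 8.99, 8.65 and 8.85 in WT and 9.06, 9.23 and 9.09 in Tg2576 mice of 6 months, without overlap (0.29, SE 0.10). Groups at 6 months did not overlap for 4 members on each side, against 14.8% of all probesets, and 5 members had a p under 0.05, against 8.61%.

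**Figure D4:**
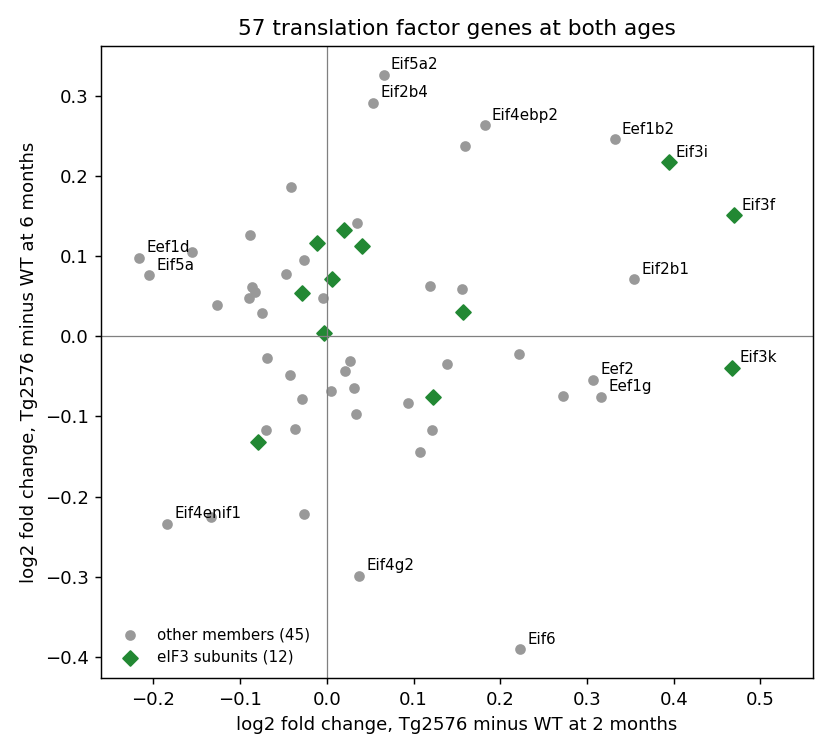
Log2 fold change of Tg2576 minus WT mice at 2 months (horizontal axis) and at 6 months (vertical axis) for the 57 members; diamonds are the 12 eIF3 subunits and circles the other 45. Eif3f (0.47 and 0.15) and Eif3k (0.47 and -0.04) lie farthest right, and Eif6 (0.22 and -0.39) lies lowest.

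With age in WT mice, 2 members rose, against 1.74% of all probesets called (1.45% higher). Eif3k rose by 0.49 (SE 0.12, 1.40-fold, limma, adjusted p = 0.238). Eif4b, which stimulates the eIF4A helicase, rose from 9.38, 9.41 and 9.71 to 9.79, 9.98 and 10.05 (0.44, SE 0.12, 1.36-fold, adjusted p = 0.243), without overlap. The young WT arrays are the same as in the genotype comparison at 2 months, so the rise of Eif3k is not a second measurement of it. Without WT 2 months replicate 1, Eif3k had 0.37 and Eif4b 0.38, and neither was called. The call of Eif4b also ended when WT 2 months replicate 2 (0.39) or WT 6 months replicate 3 (0.39) was left out. With the hybridization controls as a covariate they had 0.34 and 0.32, and without WT 6 months replicates 2 and 3, which had high controls, 0.34 and 0.29. Neither was called in these fits, the last of which leaves 1 WT mouse of 6 months whose spread is taken from the other groups.

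Other members were close to the limits in WT mice. Eef2 had 0.36, Eif3f 0.36 and Eef1d, from 10.05, 10.23 and 9.57 to 9.49, 9.56 and 9.46, had -0.44, all past the p limit and short of the fold limits. With the inverse of the upper fold limit as the lower one, Eef1d would be called lower, which makes 3 members against 2.42% of all probesets. Eif6 had 0.33, Eef1e1, a scaffold of the synthetase complex, 0.34, Eif4h, a relative of Eif4b, 0.32 and Eef1g 0.31. Eif5a had -0.27, the eEF1A methyltransferase Eef1akmt3 -0.25 and Eef1a1 -0.22. Among the other eIF3 subunits, Eif3i had 0.27 and Eif3b -0.21. Eif4g3 had 0.39 with values of 8.34 to 9.41 in the young mice. Altogether 9 members were higher and 3 lower at p under 0.05, against 12% of all probesets. Oligodendrocyte markers moved between the same arrays, with 0 of 9 above 0 (median -0.41) and Mbp, Mog and Cldn11 called lower. Olfactory sensory neuron markers had 0 of 8 above 0 (median -0.39), choroid plexus markers 0 of 4 (median -0.26) and astrocyte markers 1 of 7 (median -0.24), while the interneuron marker Gad2 was called higher (0.54). Their part in the members' values was not tested.

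In Tg2576 mice, 0 members were called between 2 and 6 months, against 0.527% of all probesets, of which 0 passed an adjusted p of 0.05 in limma and 1247 (5.62%) an unadjusted 0.05. Eif3f and Eif3k had 0.04 and -0.02, and Eif4b 0.20. Eif2b3 had 0.27 (SE 0.12) and Eif6 -0.28 (SE 0.12), each without overlap. Eif4ebp1 had 0.23, Eif4g2 -0.17 and Eif3a -0.17.

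Beyond the factors themselves, regulators and neighbouring steps of translation were listed. None of 4 eIF2 kinases, 16 targets of the integrated stress response, 18 measured genes of mTORC1 and cap control, 11 poly(A)-binding and other helpers, 5 termination and recycling factors, 8 hypusine and diphthamide enzymes or 10 mitochondrial factors was called in any of the 5 comparisons. Per comparison, 0.527% to 1.74% of all probesets were called, so lists this short were likely to hold none. The absence of calls therefore does not show that these genes were level. Stress response targets had medians of 0.02 at 2 months and 0.01 at 6 months, with 9 and 8 of 16 above 0. The mTORC1 and cap control list had a median of -0.12 at 2 months and -0.03 at 6 months, with 4 of 18 above 0 at each age. Of 20 measured cytosolic tRNA synthetase genes, Lars was called, higher with age in Tg2576 mice (0.39). Terminal oligopyrimidine (TOP) mRNAs, whose translation follows mTORC1, include 9 members, and these had a median of 0.22 at 2 months with 7 of 9 above 0, among them Eif3f and Eif4b. At 6 months the median was 0.10 with 6 of 9 above 0.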

How the data were processed

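The authors amplified 1 ng of OB RNA per mouse (WT Pico) and hybridized it to Clariom S arrays. Deposited values are log2 intensities, made by the authors with RMA (version not given in the sources used). From these, limma 3.58.1 in R 4.3.3 was fitted to 4 group means over 12 arrays and 22206 gene probesets. Another 6923 control probesets were left out. The p limit of 0.01 is that of the methods. Adjusted values are Benjamini-Hochberg over all probesets. Members, lists, rules and tests were chosen with earlier results of these data known. Named were all eIF3 subunits measured, called members, the 3 largest rises and falls per comparison, paralog sets and up to 4 called genes of each list; Eif1, Eif5, Eif2s1, Eif3g, Eif3j1, Eif4a2 and Eif4g1 were not analysed here. Other genes named were chosen after their values were seen, as were the promoters printed. Alternatives were other scalings, filters, weights, covariates, limits and leaving out arrays. The fit was tested on simulated data. Precision is limited by having 3 arrays a group. Plots used matplotlib 3.10.9.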

Additional observations from a re-analysis of the deposited data

Results flagged for a closer look

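The difference between Tg2576 and WT mice was compared between 6 and 2 months within the same limma fit, and 2 members passed p under 0.01. Eif6 changed by -0.61 on the log2 scale, from 0.22 at 2 months to -0.39 at 6 months. Eif3k changed by -0.51, from 0.47 to -0.04. Adjusted over all probesets, both had an adjusted p = 0.842, and 0.779% of all probesets passed the same limit. The causes were not tested.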

How the results depend on the processing

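Without 1 array each, the counts of called members ran from 0 to 6 at 2 months (reported value 2), 0 to 1 at 6 months (0), 0 to 10 for age in WT mice (2), 0 to 0 for age in Tg2576 mice (0) and 1 to 5 for the difference between ages (2). The low ends at 2 months and for age in WT mice came without WT 2 months replicate 1. That fit called 51 and 271 of all 22206 probesets there, against 127 and 387 in the main fit. The high ends of 6, 10 and 5 came without WT 2 months replicate 3. There 588, 851 and 759 of all probesets were called, against 127, 387 and 173 in the main fit. Array weights gave 4 at 2 months and 4 for age in WT mice, with 279 and 519 of all probesets. The leptomeningeal covariate gave 0 at 2 months, 1 at 6 months and 0 for the difference, with 61, 270 and 104 of all probesets. The hybridization covariate gave 0 for age in WT mice and 0 for the difference, with 125 and 64 of all probesets. A further fit left out WT 2 months replicate 1 and Tg2576 2 months replicate 3, chosen after seeing the data. Its counts were 0 at 2 months, 0 for age in WT mice and 0 for the difference, with 71, 281 and 152 of all probesets. A p limit of 0.01 with no fold limit gave 2 at 6 months and 5 for age in WT mice, the inverse of the upper fold limit as the lower one (chosen after seeing the data) gave 1 at 6 months, p under 0.05 gave 4 for the difference, and an adjusted p of 0.05 gave 0 throughout. The eIF3 median minus that of the other members was 0.00898 at 2 months (0.0397 with the leptomeningeal covariate, 0.00898 to 0.0481 without 1 array, 0.00445 without that pair), 0.0849 at 6 months (0.0163 with the hybridization covariate, 0.0356 without WT 6 months replicates 2 and 3, 0.0329 to 0.120 without 1 array) and -0.0262 for age in WT mice (-0.0860 with array weights, -0.0536 to -0.00159 without 1 array). For age in Tg2576 mice it was 0.00345 (-0.0300 to 0.0107), and for the difference 0.0267 (0.111 with array weights, 0.0938 with dim probesets left out, -0.0177 to 0.0489). Without 1 array its sign turned in the last 2 comparisons. Over the other alternatives it turned at 2 months (-0.00857 to 0.0397), for age in Tg2576 mice (-0.0222 to 0.0312) and for the difference (-0.000916 to 0.111). The causes were not tested. Of 683 values of single genes under an alternative, 627 kept their direction and side of the limits, 22 newly passed, 34 no longer passed and 0 turned direction. No pairing of the mice by replicate number was seen. Of 18 same-number pairs of arrays, 4 had deviations correlated above 0.1 (range over the 18, -0.268 to 0.175). Only 3 of 12 arrays were closest to their own number. With 3 arrays a group, these values cannot show that no mice were paired. With the replicate number as a block, 2, 0, 2, 0 and 2 members were called in the 5 comparisons. Dim signal limits the 21 members not above background on every array.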
